A study of Oryza sativa with 12 samples.

Results

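How far the abscission zone (AZ) of the rice pedicel differs from its nonabscission zone (NAZ) was compared between the cultivars W517 and DZ129. For each gene, the AZ minus NAZ difference of DZ129 was subtracted from that of W517, and the result is called the interaction. A positive interaction means that AZ stood higher relative to NAZ in W517 than in DZ129, and a negative interaction means the reverse. Genes entered when their mean reached 1 FPKM (fragments per kilobase and per unit of sequencing depth) in at least 1 tissue of each cultivar. Of 35851 genes listed, 18933 met this limit, and all of them were among the 23951 genes tested. The gene closest inside the limit had an interaction of -0.09 and the gene closest outside had one of -0.12, neither past the test.

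W517 is labelled as an easy-shattering rice and DZ129 as a rice that has lost shattering, and both carry the genotype label WT. W517AZ, W517NAZ, DZ129AZ and DZ129NAZ had 3 libraries each, all taken on day 10, which the labels count from flowering and the methods from heading. AZ was a piece of under 2 mm and NAZ was the pedicel that remained, so both are mixtures of cell types. What separated the replicates (plants, plots or pools) is not given in the sources used here, and p-values measure only the spread between these libraries. In bulk tissue, fewer cells of a type and less RNA per cell cannot be told apart.

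Abscission of a cereal grain takes place in a thin layer of small cells that crosses the pedicel. Its cells keep thin walls while the tissue around them lignifies, and at maturity the walls of the layer are loosened by enzymes. Auxin moving out of the organ is known to hold separation back, ethylene to speed it, and cytokinins and gibberellins to act on the growth of the surrounding tissue. An interaction points to transcripts whose tissue pattern, and not only whose level, depends on the cultivar. Because a constant is added to FPKM before the logarithm, a low level in either cultivar can also change it.

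Libraries held 17117441 to 20891779 gene-assigned reads each. Genes at 0 numbered 8081 to 8336 in the W517AZ libraries, 9753 to 9934 in W517NAZ, 7478 to 7608 in DZ129AZ and 8484 to 8616 in DZ129NAZ. Pearson correlations between replicates over log2 values of the genes tested were 0.989 to 0.991. The 15 prolamin, glutelin and other grain storage genes that could be named summed to 447 to 491 FPKM in the W517AZ libraries and 42.1 to 47.5 FPKM in W517NAZ. The same 15 genes summed to 1.93 to 3.81 FPKM in DZ129AZ and 1.12 to 1.62 FPKM in DZ129NAZ, where 4 of them were at 0. These 15 genes were therefore highest in W517AZ and near 0 in both tissues of DZ129. They were named from a list of the study, described below, whose genes differed between W517AZ and both W517NAZ and DZ129AZ. Their pattern thus follows in part from that selection, and storage genes outside the list were not summed. The part of these 15 genes in the results below was not tested.

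The tissue difference depended on the cultivar in a large share of the genes, mostly by a small amount. An interaction at an adjusted p below 0.05 (limma on log2(FPKM + 0.1), Benjamini-Hochberg over all genes tested) was found in 8609 of the 18933 genes, or 45.5%, against 43.4% of all genes tested. It was positive in 4089 and negative in 4520 of them. The background shares were 21.4% for positive and 22% for negative interactions. The median interaction of the 18933 genes was 0.003, and its median size was 0.285. An interaction beyond 1 on the log2 scale, a 2-fold difference between the tissue ratios of the cultivars, was passed by 1693 genes. These are 8.94% of the genes at the limit, against 13.6% of all genes tested, and 913 were positive and 780 negative. The background was 7.61% for positive and 6% for negative interactions of this size. With quantile normalization 43.0% of the genes beyond 1 were positive in place of 53.9%, so the split between directions moved with the scaling. It also moved with the level of the genes, as 48.0% were positive at a limit of 5 FPKM (414 of 863) and 101 of 279 between 20 and 100 FPKM. With a pseudocount of 1, 1110 genes were beyond 1.

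**Figure D1:**
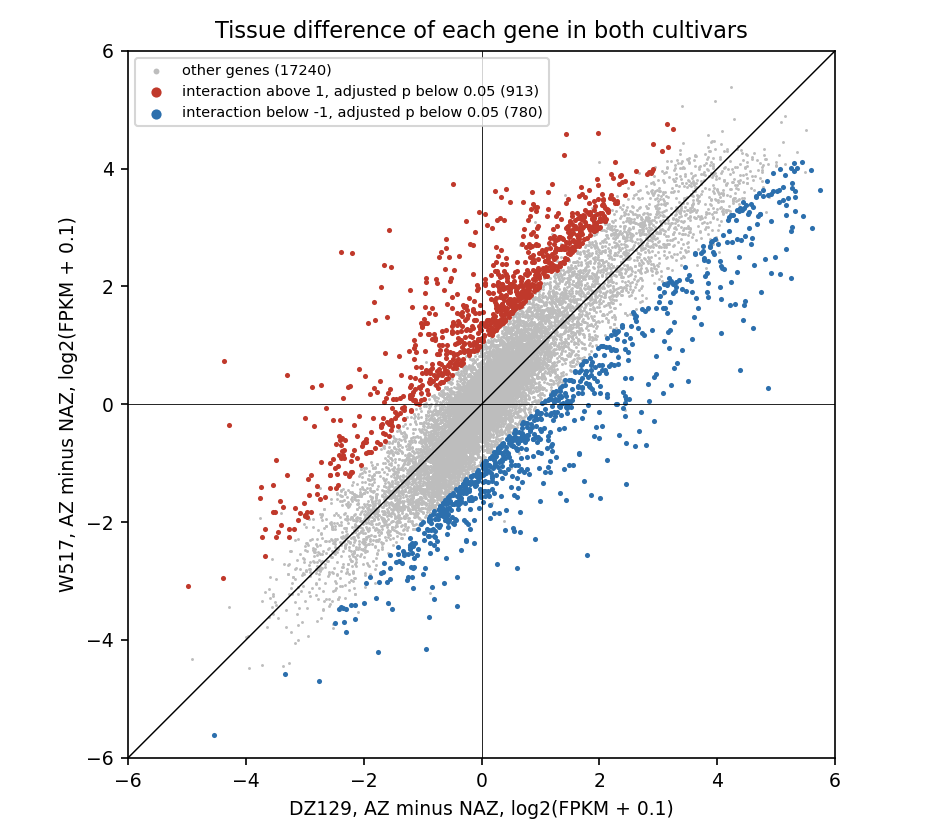
Each point is 1 of the 18933 genes, with the AZ minus NAZ difference in W517 on the y axis and in DZ129 on the x axis, both on log2(FPKM + 0.1). The 913 red genes lie above the diagonal of equal tissue differences and the 780 blue genes below it, while most genes lie along it.

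The 1693 genes were divided by their tissue difference in each cultivar, counted as called at an adjusted p below 0.05 and a size beyond 1. Over all genes tested, 33.7% were called in W517 and 28% in DZ129. The largest class held 650 genes (38.4%) called in W517 and not in DZ129, with a median tissue difference of 1.71 in size in W517 and 0.42 in DZ129. A further 291 genes were called in both cultivars in the same direction with the larger difference in W517, and 234 of these had a positive interaction. In the reverse order, 302 genes were called in DZ129 and not in W517, and 223 were called in both with the larger difference in DZ129, of which 174 had a negative interaction. Opposite tissue differences were called in 30 genes, 18 with AZ higher in W517 and lower in DZ129, and 12 the other way round. The remaining 197 genes were called in neither cultivar, with median tissue differences of 0.66 in size in W517 and 0.58 in DZ129.

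**Figure D2:**
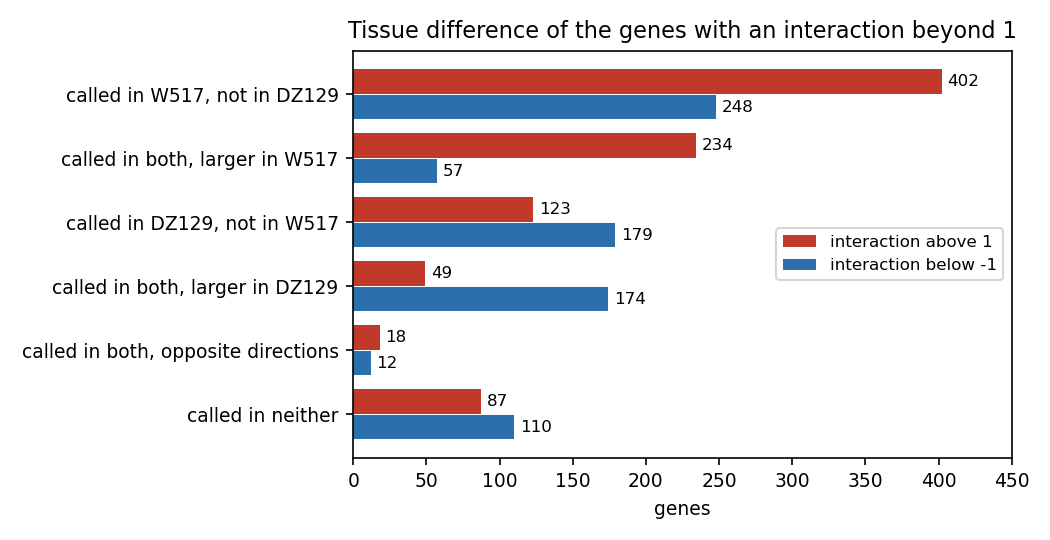
Bars count the 1693 genes with an interaction beyond 1 by the cultivar in which their tissue difference was called, with positive interactions in red and negative ones in blue. Genes called in W517 and not in DZ129 are the largest class, with 402 positive and 248 negative.

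Each of the 1693 genes was also described by the group that lay farthest from the mean of the other 3. W517NAZ was the farthest in the largest number, lying below the others in 438 genes (25.9%) and above them in 147. W517AZ lay above the others in 259 genes and below them in 221. DZ129NAZ lay below in 242 and above in 147, and DZ129AZ above in 170 and below in 69. By this description, positive interactions came most often with a low level in W517NAZ, and next with a high level in W517AZ. It was made only on log2(FPKM + 0.1) as deposited, while the split between directions moved with quantile normalization. The W517NAZ libraries also had the most genes at 0, 9753 to 9934. The share of genes with any interaction grew with the level of the gene, from 24.9% of 1616 genes with an overall mean under 2 FPKM to 78.4% of 852 genes at 100 FPKM and above. The median standard error of the interaction fell in the same order, with 0.33 in the lowest class and 0.06 in the highest. Interactions beyond 1 were least frequent between 20 and 100 FPKM, with 279 of 5676 genes (4.92%), and made up 17.3% of the genes under 2 FPKM.

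Product descriptions were available only for the 1160 readable genes of a list that the study had drawn up from these libraries. To enter it, a gene had to differ between the tissues of W517 and also between W517AZ and DZ129AZ, and genes that differed between the tissues of DZ129 were removed. Of these, 398 were at the limit in both cultivars. An interaction was found in 348 of the 398 (87.4%), 160 positive and 188 negative, and one beyond 1 in 210 (52.8%). Those shares, small tissue differences in DZ129 and a W517AZ level apart from the other groups follow from how the list was made. The product groups below are therefore a description and not independent evidence of an interaction or of its direction. None of the 912 readable genes tested was called in DZ129 and not in W517, as the selection asks, so genes of that class have no product here. A product name other than an expressed, hypothetical or transposon protein was given for 276 of the 398 genes, and genes with a product are ranked below among these 276. Products were sorted into 20 lists, which held 142 of the 398 genes. With a pseudocount of 1, 53 of the 160 genes named or on a list had an interaction over 1.5 times smaller, and none reversed.

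**Figure D3:**
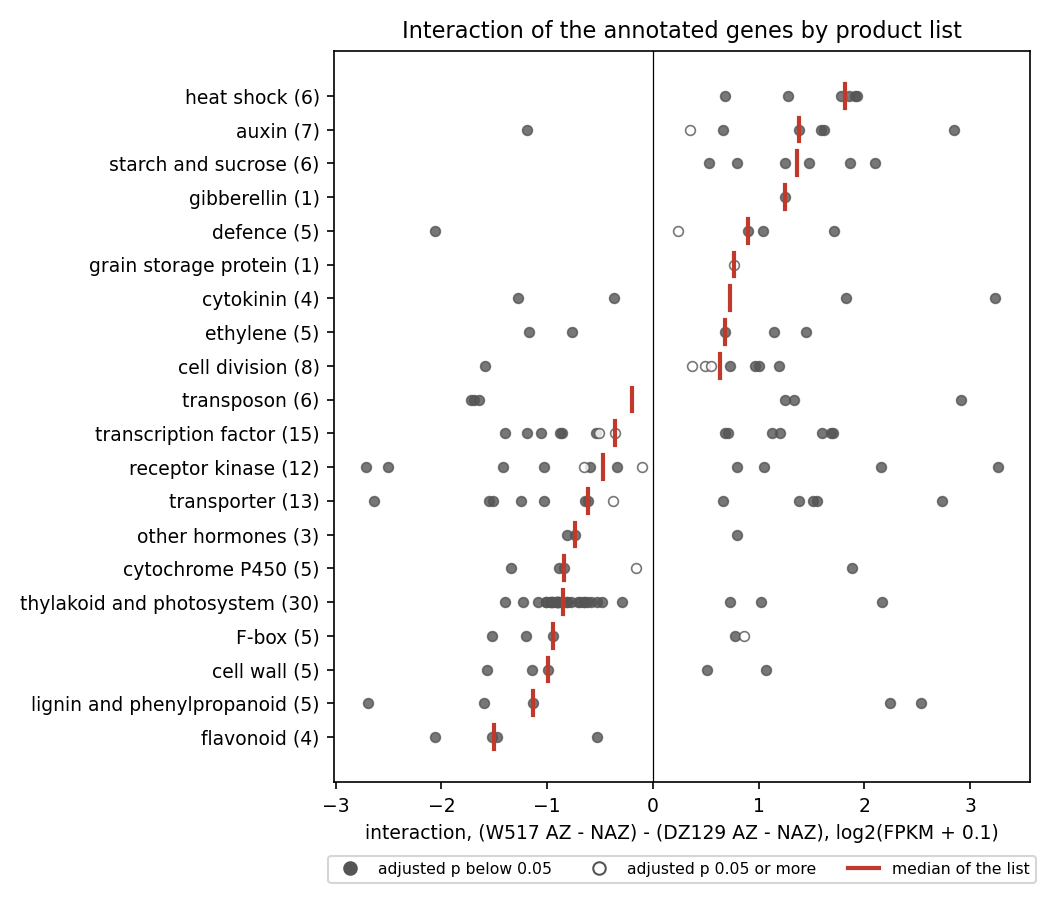
Each circle is the interaction of 1 gene on log2(FPKM + 0.1), filled where the adjusted p was below 0.05, with the red bar at the median of the list and the number of genes in parentheses. Heat shock, starch and sucrose and auxin genes lie mostly above 0, and flavonoid and thylakoid genes mostly below 0.

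Genes annotated to the thylakoid or the photosystems formed the largest list with a mostly shared direction. Of 31 readable genes of the thylakoid and photosystem list, 30 were at the limit, and 27 had a negative interaction and 3 a positive one. The median was -0.85, against 0.02 over all genes tested and -0.36 over the 398 readable genes at the limit from which the list was drawn. Of those 398 genes, 188 had a negative and 160 a positive interaction. Their median tissue difference was -0.90 in W517 and -0.07 in DZ129, so part of this direction is shared with the readable genes. AZ was already lower than NAZ in DZ129, by a median of 0.54 on the log2 scale, and the deficit in W517 was larger, with a median tissue difference of -1.37. Summed over the list, the level was 1142 to 1224 FPKM in the W517AZ libraries and 2927 to 2966 FPKM in W517NAZ. It was 2630 to 2862 FPKM in DZ129AZ and 3854 to 4024 FPKM in DZ129NAZ, so W517AZ stood apart from the other 3 groups.

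Plastocyanin (LOC_Os06g01210), the copper protein that carries electrons to photosystem I, averaged 177 FPKM in W517AZ and 457 FPKM in W517NAZ, and 406 FPKM in DZ129AZ and 612 FPKM in DZ129NAZ, an interaction of -0.78. The photosystem II 10 kDa polypeptide (LOC_Os08g10020) was the most abundant member and had an interaction of -0.90. A chlorophyll a-b binding protein of the light-harvesting antenna (LOC_Os01g64960) had one of -1.01. The photosystem II 5 kDa protein (LOC_Os02g37060) was at 19.7, 17.2 and 13.6 FPKM in W517AZ and 53.8, 54.6 and 53.9 FPKM in W517NAZ. In DZ129 it was at 35.7, 35.4 and 35.1 FPKM in AZ and 49.9, 50.8 and 46.1 FPKM in NAZ. AZ was below NAZ in both cultivars without overlap, by 1.70 ± 0.09 (SE) in W517 and 0.47 ± 0.09 in DZ129 on the log2 scale, and the interaction was -1.23 (limma adjusted p = 9.2e-06). The most negative member was LOC_Os03g53640, an expressed protein whose best match is the Arabidopsis photosystem II assembly factor PSB27-2. It had 6.87, 6.44 and 6.41 FPKM in W517AZ and 14.2, 13.03 and 13.8 FPKM in W517NAZ, against 18.2, 16.5 and 16.2 FPKM in DZ129AZ and 12.8, 14.0 and 12.98 FPKM in DZ129NAZ. Its tissue difference ran in opposite directions, lower in AZ in W517 and higher in AZ in DZ129, with an interaction of -1.40 ± 0.09 (SE).

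The 3 members with a positive interaction were a tubulin/FtsZ domain protein (LOC_Os05g37160), an annexin (LOC_Os06g11800) and LOC_Os02g42000, whose best match is the Arabidopsis thylakoid protein PNSL3. The tubulin and the annexin, a calcium-dependent membrane-binding protein, entered the list through their annotation to the thylakoid and are not part of the photosystems. Among the negative genes, too, were products not named as photosystem parts. Examples are a ribosomal protein L4 (LOC_Os03g15870) with -0.90, an RNA recognition motif protein (LOC_Os04g50110) with -0.95 and PTAC16 (LOC_Os05g22614) with -0.70. LOC_Os02g42000 was at 6.43, 6.80 and 6.08 FPKM in W517AZ, above all other libraries, which ranged between 0.798 and 2.44 FPKM, and its interaction was 2.16 ± 0.34 (SE).

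**Figure D4:**
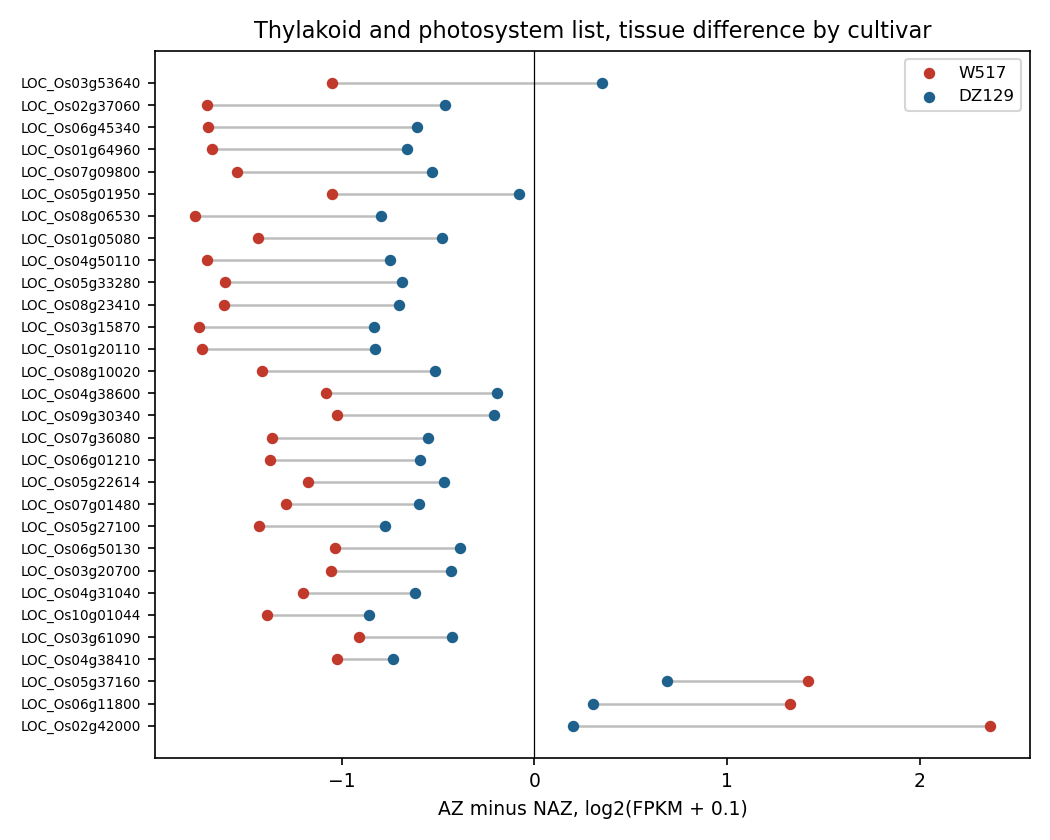
For the 30 genes of the thylakoid and photosystem list, the AZ minus NAZ difference on log2(FPKM + 0.1) is shown in W517 (red) and in DZ129 (blue). The red point lies left of the blue one in 27 genes and right of it in 3.

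Genes of starch synthesis showed the reverse pattern. All 6 starch and sucrose genes at the limit had a positive interaction, 4 of them beyond 1. Their median was 1.36, against -0.36 over the 398 readable genes at the limit. With a pseudocount of 1 or quantile normalization, 5 of the 6 were called. Glucose-1-phosphate adenylyltransferase, which makes the ADP-glucose from which starch is built, is encoded by several genes of which 2 were listed. LOC_Os08g25734 was at 282, 270 and 279 FPKM in W517AZ and at 73.1, 63.2 and 67.7 FPKM in W517NAZ. In DZ129 it was at 63.5, 62.2 and 65.2 FPKM in AZ and 67.5, 68.0 and 64.9 FPKM in NAZ. Only the W517AZ libraries were high, and the interaction was 2.10 ± 0.06 (SE, limma adjusted p = 3.7e-10). LOC_Os01g44220, the other gene, averaged 181 ± 1.63 FPKM in W517AZ and 31.9 ± 4.18 FPKM in W517NAZ (SD, n = 3 each), and 18.03 ± 1.77 FPKM in DZ129AZ and 8.73 ± 0.63 FPKM in DZ129NAZ. Its tissue difference was called in both cultivars, with 2.51 in W517 and 1.03 in DZ129. The starch branching enzyme LOC_Os06g51084, which adds the branch points of amylopectin, was at 339, 346 and 348 FPKM in W517AZ and 81.9, 73.8 and 74.9 FPKM in W517NAZ. In DZ129AZ it was at 65.8, 62.0 and 60.9 FPKM and in DZ129NAZ at 50.7, 50.1 and 51.8 FPKM, an interaction of 1.86 ± 0.06 (SE). An alpha-glucan phosphorylase (LOC_Os03g55090) had 0.54, a hexokinase (LOC_Os07g09890) 0.80 and a glycosyl hydrolase (LOC_Os03g26910) 1.25. The hexokinase was the gene that lost its call, with 0.10 at a pseudocount of 1 and 0.24 after quantile normalization. The grain storage list, like both adenylyltransferase genes and the branching enzyme, was highest in W517AZ. Its sums were 447 to 491 FPKM in W517AZ against at most 47.5 FPKM in any other library. Its part in the starch result was not tested. Just 1 storage gene of 15 was at the limit in both cultivars, and its interaction of 0.77 did not pass the test, though it did with a pseudocount of 1, at 0.60.

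All 6 heat shock and chaperone genes at the limit had a positive interaction, 5 beyond 1. Their median was 1.82, against -0.36 over the 398 readable genes at the limit. The most abundant was the DnaK family gene LOC_Os02g02410, known as BIP1, an Hsp70 chaperone of the endoplasmic reticulum. It was at 182, 182 and 187 FPKM in W517AZ and 78.7, 77.1 and 76.9 FPKM in W517NAZ. In DZ129AZ it was at 60.4, 62.6 and 58.1 FPKM and in DZ129NAZ at 93.9, 99.1 and 94.6 FPKM. The tissues thus ranked in opposite order in the cultivars, and the interaction of 1.91 ± 0.05 had the smallest adjusted p of the named genes (limma adjusted p = 6.7e-11). The stress-inducible protein STI (LOC_Os04g45480), a co-chaperone that links Hsp70 and Hsp90, was at 6.46, 6.66 and 5.89 FPKM in W517AZ and 1.82 to 2.24 FPKM in W517NAZ, and between 1.48 and 1.95 FPKM in all DZ129 libraries. The small heat shock protein LOC_Os01g08860 was at 1.27 to 1.43 FPKM in W517AZ and 0.207 to 0.526 FPKM in W517NAZ, against 21.2 to 22.1 FPKM in DZ129AZ and 24.8 to 27.1 FPKM in DZ129NAZ. Its interaction of 1.93 ± 0.27 (SE) therefore came with a far lower level in W517 in both tissues, and was 1.03 with a pseudocount of 1. Another small heat shock gene (LOC_Os01g04360), with 4, 7 and 6 reads in the W517NAZ libraries, had 1.78, or 0.93 with a pseudocount of 1. HSP101 (LOC_Os05g44340) had 1.28 and a DNAJ protein (LOC_Os03g19200) 0.68. The DNAJ gene lost its call with a pseudocount of 1 (0.25) and with quantile normalization (0.22), and the other 5 kept theirs. BIP1, STI and HSP101 were highest in W517AZ, as were the grain storage sums given above. The other groups did not rank alike, as BIP1 averaged 77.6 FPKM in W517NAZ and 95.9 FPKM in DZ129NAZ, where the storage sums were lowest. The part of the storage genes was not tested.

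Auxin genes were mostly positive. Of 7 at the limit, 5 had a positive interaction, 1 a negative one and 1 did not pass the test. Of the 398 readable genes at the limit, 160 were positive and 188 negative. The auxin median was 1.38, against -0.36 over the 398 genes. OsIAA4 (LOC_Os01g18360), a member of the Aux/IAA family that represses auxin response factors until auxin has it degraded, was at 4.33, 5.07 and 5.23 FPKM in W517AZ and 0.703, 0.390 and 0.338 FPKM in W517NAZ. In DZ129 it was at 12.1, 9.66 and 9.90 FPKM in AZ and 8.79, 8.82 and 7.83 FPKM in NAZ. DZ129 was above W517 in both tissues, and the W517NAZ libraries were the lowest by a wide margin. The interaction was 2.85 ± 0.27 (SE, limma adjusted p = 2.4e-06), and 1.71 with a pseudocount of 1. OsIAA9 (LOC_Os02g56120) had an interaction of 1.38 and the SAUR gene OsSAUR29 (LOC_Os06g50040) one of 0.67, which quantile normalization brought to 0.18 without a call. The IAA-amino acid hydrolase ILR1-like 6 (LOC_Os07g14610), of a family that frees auxin from its amino acid conjugates, averaged 11.7 FPKM in W517AZ and 3.34 FPKM in W517NAZ, and 29.8 FPKM in DZ129AZ and 26.5 FPKM in DZ129NAZ. Its interaction was 1.62 ± 0.11 (SE).

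Both genes named auxin-induced protein 5NG4 had an interaction, in different directions. LOC_Os05g33900 was at 33.0, 33.8 and 35.1 FPKM in W517AZ and 8.22, 8.23 and 9.26 FPKM in W517NAZ, against 2.78 to 3.19 FPKM in DZ129AZ and 1.89 to 2.61 FPKM in DZ129NAZ, an interaction of 1.59 ± 0.15 (SE). LOC_Os02g01326 averaged 10.6 FPKM in W517AZ and 39.0 FPKM in W517NAZ, and 79.8 FPKM in DZ129AZ and 128 FPKM in DZ129NAZ, an interaction of -1.19. Auxin response factor 7 (LOC_Os02g35140) had 0.35 (limma adjusted p = 0.092).

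The 4 cytokinin genes at the limit were divided, 2 positive and 2 negative. Glucosylation of cytokinins stores or inactivates them. The cytokinin-O-glucosyltransferase 2 gene LOC_Os02g51930 was at 9.95, 8.34 and 8.21 FPKM in W517AZ and 0.902, 0.476 and 0.514 FPKM in W517NAZ. In DZ129AZ it was at 2.83, 3.78 and 3.53 FPKM and in DZ129NAZ at 2.33, 2.67 and 2.50 FPKM. W517AZ was the highest group and W517NAZ the lowest, with DZ129 between them, and the interaction of 3.24 ± 0.27 (SE) was among the 10 highest of all genes with a product. The gene LOC_Os02g51910, with the same product name and a locus number close by, went the other way, at 2.40 FPKM on average in W517AZ and 6.41 FPKM in W517NAZ, and 7.17 FPKM in DZ129AZ and 7.76 FPKM in DZ129NAZ. Its interaction was -1.27 ± 0.15 (SE). How similar such genes are, and whether reads were divided between them, was not tested. Cytokinin-N-glucosyltransferase 1 (LOC_Os07g13634) had 1.83, and the type-A response regulator OsRR2 (LOC_Os02g35180), which damps cytokinin signalling, had -0.37.

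**Figure D5:**
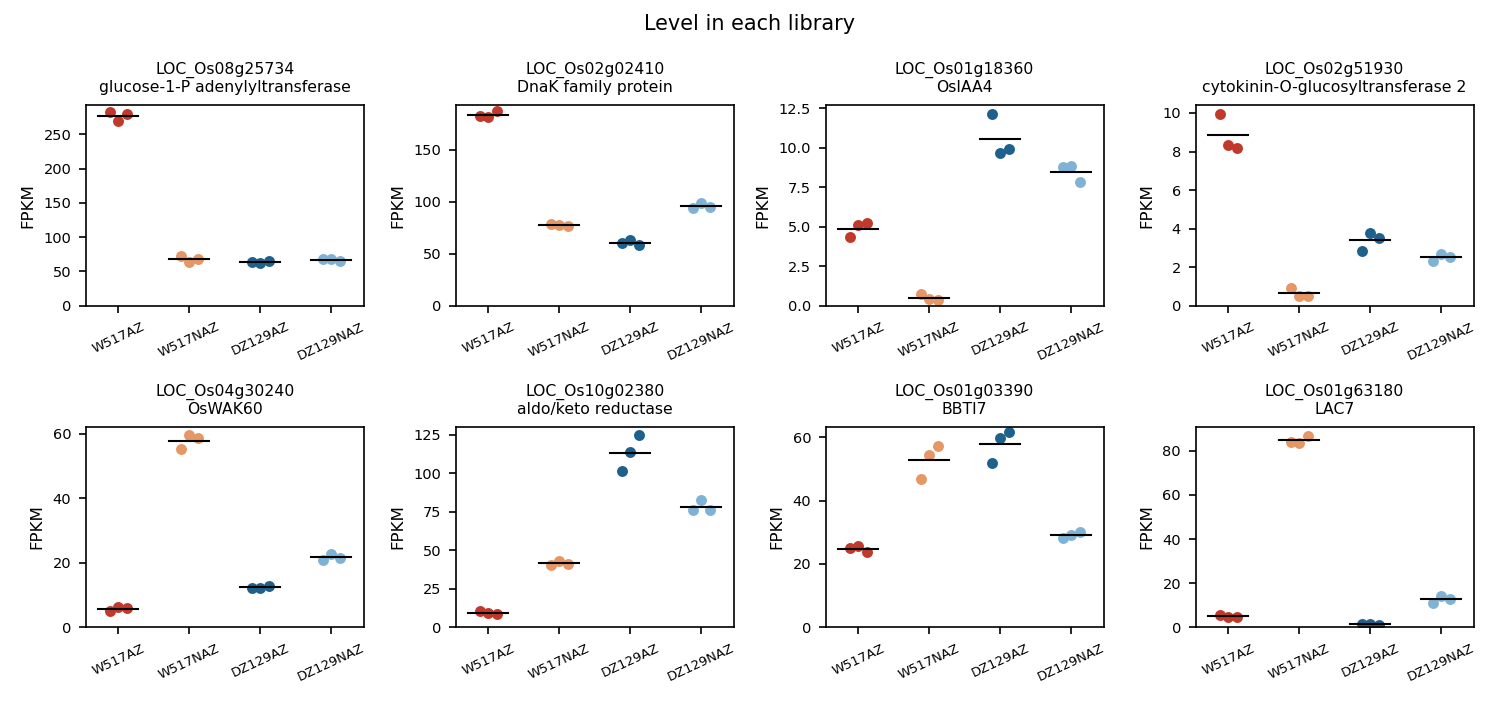
FPKM of 8 named genes in the 3 libraries of each group, with points for libraries and lines for group means, each panel on its own axis from 0. The first 4 have a positive interaction and the last 4 a negative one.

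Of 5 ethylene genes at the limit, 3 were positive and 2 negative. The positive ones were low in W517, and none of the 3 passed the test after quantile normalization. The 1-aminocyclopropane-1-carboxylate (ACC) oxidase LOC_Os05g05670, an enzyme of the last step of ethylene synthesis, was at 3.28, 2.02 and 2.95 FPKM in W517AZ and 0.578, 0.549 and 1.37 FPKM in W517NAZ, against 15.1 to 16.98 FPKM in DZ129AZ and 12.6 to 14.4 FPKM in DZ129NAZ. Its interaction was 1.44 ± 0.36 (SE), and 0.81 with quantile normalization (limma adjusted p = 0.077). The genes named ACC oxidase homolog 1 were LOC_Os08g30150, with 1.15, and LOC_Os03g64280, with -1.17. With a pseudocount of 1, LOC_Os08g30150 had 0.27 and was not called (limma adjusted p = 0.13). An ethylene-insensitive 3 gene (LOC_Os03g20790), of the family of transcription factors through which the ethylene signal acts, had -0.76. Gibberellin 2-beta-dioxygenase 1 (LOC_Os05g11810), which inactivates gibberellins, averaged 4.40 FPKM in W517AZ and 1.22 FPKM in W517NAZ, and 14.0 FPKM in DZ129AZ and 9.56 FPKM in DZ129NAZ, an interaction of 1.25 ± 0.22 (SE). Among genes of other hormones, a BRI1-associated receptor kinase (LOC_Os06g16330), a co-receptor of brassinosteroids, had 0.79, a 12-oxophytodienoate reductase (LOC_Os01g27230), of an enzyme family that includes a step of jasmonate synthesis, had -0.74, and a jasmonate-induced protein (LOC_Os04g22900) had -0.82. The reductase did not pass the test after quantile normalization (limma adjusted p = 0.096).

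Lignin and phenylpropanoid genes moved in both directions. All 5 at the limit had an interaction beyond 1, 2 positive and 3 negative. Beyond 1 were 52.8% of the 398 readable genes at the limit, against 8.94% of all genes at the limit. Laccases couple monolignols into lignin in the cell wall. The laccase precursor gene LOC_Os01g62480 was at 3.34, 4.14 and 4.58 FPKM in W517AZ and 0.394, 0.241 and 0.244 FPKM in W517NAZ, and at 1.22, 1.04 and 0.780 FPKM in DZ129AZ and 0.461, 0.710 and 0.378 FPKM in DZ129NAZ. AZ lay above NAZ in both cultivars without overlap, and the interaction was 2.54 ± 0.35 (SE), or 1.54 with a pseudocount of 1. Os4bglu18 (LOC_Os04g43410), a beta-glucosidase whose name refers to monolignol glucosides, averaged 2.13 FPKM in W517AZ and 0.310 FPKM in W517NAZ, and 4.64 FPKM in DZ129AZ and 3.80 FPKM in DZ129NAZ, an interaction of 2.24, or 1.03 with a pseudocount of 1. The negative genes were a peroxidase (LOC_Os07g44600), a cinnamoyl CoA reductase (LOC_Os01g18120), which makes monolignol aldehydes, and an O-methyltransferase (LOC_Os04g09604). With a pseudocount of 1 the reductase had -0.79 in place of -1.59, and the O-methyltransferase -0.99 in place of -1.13. The peroxidase value of -2.69 rests on at most 16 reads in a library, with 0, 0.876 and 0.286 FPKM in W517AZ, 1.64, 2.02 and 0.787 FPKM in W517NAZ, 1.28, 1.81 and 2.27 FPKM in DZ129AZ and 0.804, 0.997 and 1.93 FPKM in DZ129NAZ. It was -1.18 with a pseudocount of 1, and the call was lost in 8 of 21 alternatives, among them those without W517NAZ replicate 1 or 2, DZ129AZ replicate 2 or 3, or DZ129NAZ replicate 1 or 2.

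LAC7 (LOC_Os01g63180), the laccase gene that the study took as a candidate for shattering, had the same direction of tissue difference in both cultivars. It was at 5.55, 4.73 and 4.75 FPKM in W517AZ and 83.8, 83.5 and 86.7 FPKM in W517NAZ. In DZ129 it was at 1.54, 1.42 and 1.06 FPKM in AZ and 11.1, 14.4 and 12.9 FPKM in NAZ. AZ was lower by 4.06 ± 0.12 (SE) in W517 and by 3.17 ± 0.12 in DZ129 on the log2 scale, and the interaction was -0.89 ± 0.17 (limma adjusted p = 0.0011). With quantile normalization it was -0.40 and did not pass (limma adjusted p = 0.10). The other candidates were a 3-oxo-5-alpha-steroid 4-dehydrogenase gene (LOC_Os01g63260) and a glycosyl hydrolase family 17 gene (LOC_Os03g14210), of a family that includes beta-1,3-glucanases. LOC_Os01g63260 was at 2.09, 1.81 and 2.91 FPKM in W517AZ and 0.290, 0.619 and 0.487 FPKM in W517NAZ, and at 6.33, 7.40 and 6.46 FPKM in DZ129AZ and 2.43, 3.40 and 2.62 FPKM in DZ129NAZ. Its interaction of 0.85 ± 0.32 lay at the threshold (limma adjusted p = 0.0498) and was past it in 5 of 21 alternatives. LOC_Os03g14210 did not reach the limit in DZ129, where AZ was at 0.230, 0.275 and 0.459 FPKM and the NAZ libraries had 3, 0 and 5 reads. In W517 it averaged 1.10 FPKM in AZ and 0.21 FPKM in NAZ, so its interaction rests on low values. Its interaction was 0.65 ± 0.47 (limma adjusted p = 0.29). It passed the test with a pseudocount of 0.5, at 0.66 (limma adjusted p = 0.017), and of 1, at 0.50 (limma adjusted p = 0.0061), and was -0.072 with voom on the reads. Actin (LOC_Os01g71770), the internal control of the study's qRT-PCR, was at 43.0 to 47.1 FPKM in W517AZ, 49.97 to 54.7 FPKM in W517NAZ, 43.6 to 46.7 FPKM in DZ129AZ and 43.8 to 46.5 FPKM in DZ129NAZ. Its interaction of -0.22 was small, passed the test (limma adjusted p = 0.018), and did not with quantile normalization.

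The 4 flavonoid genes at the limit all had a negative interaction. Their median was -1.50, against -0.36 over the 398 readable genes at the limit. Leucoanthocyanidin dioxygenase (LOC_Os02g17940), an enzyme of anthocyanidin synthesis, was at 2.17, 2.07 and 2.08 FPKM in W517AZ and 6.73, 5.40 and 6.08 FPKM in W517NAZ, against 10.3, 9.51 and 10.4 FPKM in DZ129AZ and 9.73, 10.3 and 10.3 FPKM in DZ129NAZ. Its tissue difference of -1.48 in W517 stood beside one of -0.01 in DZ129. Dihydroflavonol-4-reductase (LOC_Os02g56690), which acts 1 step before it, was at 0.0494 to 0.294 FPKM in W517AZ, from 6 reads at most, and 0.987 to 1.32 FPKM in W517NAZ, against 2.57 to 3.49 FPKM in DZ129AZ and 3.09 to 3.87 FPKM in DZ129NAZ, with an interaction of -2.06 ± 0.40, or -0.66 with a pseudocount of 1. A flavonol synthase/flavanone 3-hydroxylase gene (LOC_Os06g08032) had -1.52 and an isoflavone reductase gene (LOC_Os10g01044), also on the thylakoid list, had -0.53.

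Among 5 cell wall genes, 2 were positive and 3 negative. CSLE1 (LOC_Os09g30120), a cellulose synthase-like gene, was at 0.977, 1.36 and 1.13 FPKM in W517AZ and 7.41, 5.48 and 5.66 FPKM in W517NAZ, against 30.5 to 34.7 FPKM in DZ129AZ and 53.9 to 55.8 FPKM in DZ129NAZ. AZ was lower than NAZ in both cultivars, by 2.32 in W517 and 0.75 in DZ129, an interaction of -1.57 ± 0.17, or -0.99 with a pseudocount of 1. Pectin acetylesterases remove acetyl groups from pectin, and their genes LOC_Os02g47400 and LOC_Os01g66840 had interactions of 1.07 and -1.14. A glycine-rich wall structural protein (LOC_Os05g02770) had tissue differences of -1.003 in W517 and -0.01 in DZ129, and a glycosyl hydrolase family 17 gene (LOC_Os01g71670) had 0.51. The last of these lay near the threshold (limma adjusted p = 0.045) and lost the call in 16 of 21 alternatives.

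Receptor kinases included some of the largest interactions in both directions. Of 12 at the limit, 4 were positive and 6 negative. The wall-associated kinase OsWAK60 (LOC_Os04g30240), of a family that binds pectin, was at 5.15, 6.18 and 5.92 FPKM in W517AZ and 55.3, 59.5 and 58.6 FPKM in W517NAZ. In DZ129AZ it was at 12.3, 12.2 and 12.8 FPKM and in DZ129NAZ at 20.9, 22.8 and 21.5 FPKM. AZ was below NAZ in both cultivars, by 3.31 ± 0.06 in W517 and 0.80 ± 0.06 in DZ129, and W517NAZ was the highest group. The interaction was -2.51 ± 0.09 (SE, limma adjusted p = 9.8e-10). The leucine-rich repeat receptor-like kinase LOC_Os10g02990 was at 0.167, 0.193 and 0.271 FPKM in W517AZ and 3.31, 3.74 and 3.87 FPKM in W517NAZ, and at 2.36, 2.11 and 1.56 FPKM in DZ129AZ and 3.68, 3.53 and 4.06 FPKM in DZ129NAZ. Its interaction was -2.71 ± 0.25 (SE), or -1.27 with a pseudocount of 1, with W517AZ alone near 0. In the other direction, LOC_Os03g21510, named as an inactive receptor kinase after an Arabidopsis gene, was at 9.64, 10.4 and 10.2 FPKM in W517AZ and 1.52, 1.81 and 1.28 FPKM in W517NAZ, and at 2.59, 3.49 and 2.17 FPKM in DZ129AZ and 4.16, 3.64 and 4.81 FPKM in DZ129NAZ. AZ was higher than NAZ in W517 and lower in DZ129, and the interaction was 3.26 ± 0.24 (SE). Wall-associated kinases form a large family of similar genes, and whether reads were shared between them was not tested.

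Of 13 transporters at the limit, 5 were positive and 7 negative. An amino acid transporter (LOC_Os06g12320) was at 3.07, 3.71 and 4.54 FPKM in W517AZ and 0.191 to 0.264 FPKM in W517NAZ, and at 0.789 to 1.35 FPKM in DZ129AZ and 0.379 to 0.700 FPKM in DZ129NAZ, an interaction of 2.74 ± 0.34, or 1.54 with a pseudocount of 1. The nucleobase-ascorbate transporters LOC_Os03g60880 and LOC_Os01g55500 had 1.55 and 1.38, and an aquaporin (LOC_Os01g13120), a water channel, had 1.51. Among the negative genes were the metal cation transporters LOC_Os01g74110 and LOC_Os07g12890, with -2.63 and -1.51, a peptide transporter (LOC_Os01g65130) with -1.55, a potassium transporter (LOC_Os03g37840) with -1.25 and a high affinity nitrate transporter (LOC_Os04g40410) with -1.03. LOC_Os01g74110 had 4, 11 and 9 reads in the W517AZ libraries, and its interaction was -1.27 with a pseudocount of 1. LOC_Os07g12890 averaged 12.2 FPKM in W517AZ and 33.9 FPKM in W517NAZ, and 40.03 FPKM in DZ129AZ and 38.9 FPKM in DZ129NAZ, so that W517AZ alone was low.

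Transcription factors were evenly divided, with 7 positive and 6 negative interactions among 15. The homeobox leucine zipper gene LOC_Os09g21180 was at 29.1, 26.4 and 28.2 FPKM in W517AZ and 6.204, 7.19 and 7.71 FPKM in W517NAZ, and at 8.61 to 9.42 FPKM in DZ129AZ and 6.77 to 7.68 FPKM in DZ129NAZ. Only W517AZ was high, and the interaction was 1.68 ± 0.12 (SE). The C2H2 zinc finger gene ZOS2-03 (LOC_Os02g05610) had 1.71, or 0.75 with a pseudocount of 1. A CCR4-NOT gene (LOC_Os05g40790), which by its product name belongs to a complex that shortens the tails of mRNAs, had 1.60. An AP2 domain gene (LOC_Os01g21120) had 1.202. A bZIP gene (LOC_Os02g58670) with -1.40, WRKY36 (LOC_Os04g46060) with -1.06 and the MYB genes LOC_Os04g51800 and LOC_Os01g65370 with -0.88 and -0.86 were negative. Another MYB gene (LOC_Os04g45020) was positive, with 0.71, and lost the call in 10 of 21 alternatives.

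Of 8 cell division genes, 4 were positive, 1 was negative and 3 did not pass. The tubulin/FtsZ domain genes LOC_Os03g44420 and LOC_Os05g34170 had 1.19 and 1.01, and a DNA ligase (LOC_Os05g51060) had 0.97. The histone gene LOC_Os05g36280, by contrast, had 0.37 and the core histone genes LOC_Os03g02780 and LOC_Os09g26340 had 0.50 and 0.55, which did not pass the test. The mki67 gene LOC_Os06g35574 had -1.59, at 0.626 to 1.88 FPKM in all libraries and 33 reads at most. Summed over the 23 readable genes of the list, levels were 71.8 to 78.9 FPKM in W517AZ and 24.3 to 26.1 FPKM in W517NAZ, and 67.2 to 70.4 FPKM in DZ129AZ and 42.4 to 45.5 FPKM in DZ129NAZ. AZ was above NAZ in both cultivars.

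Of 5 defence genes, 3 were positive and 1 negative. The chitinase CHIT3 (LOC_Os04g41680), of an enzyme family that cuts fungal walls, averaged 8.19 FPKM in W517AZ and 2.69 FPKM in W517NAZ, and 32.1 FPKM in DZ129AZ and 35.03 FPKM in DZ129NAZ, with 1.72. A gene named csAtPR5 (LOC_Os07g30280) had 1.04. The Bowman-Birk trypsin inhibitor BBTI7 (LOC_Os01g03390) was at 24.98, 25.5 and 23.8 FPKM in W517AZ and 46.9, 54.5 and 57.2 FPKM in W517NAZ, against 51.9, 59.7 and 61.5 FPKM in DZ129AZ and 28.2, 29.2 and 30.2 FPKM in DZ129NAZ. The tissues were mirror images, AZ below NAZ in W517 by 1.09 ± 0.07 and above it in DZ129 by 0.98 ± 0.07, and the interaction was -2.06 ± 0.10 (SE, limma adjusted p = 1.2e-08). Of 5 cytochrome P450 genes, 1 was positive and 3 were negative, and LOC_Os01g43700 had 1.88, LOC_Os05g35010 had -1.35 and LOC_Os01g12740 had -0.89. Of 5 F-box genes, 1 was positive, 3 were negative and 1 did not pass. The negative ones, OsFBX148 (LOC_Os04g48270), OsFBLD3 (LOC_Os07g06900) and OsFBX275 (LOC_Os08g09760), of the proteins that choose targets for degradation, had -1.52, -1.204 and -0.95. OsFBX338 (LOC_Os09g34200) had 0.77, and LOC_Os01g41290, which did not pass, had 0.86. Of 6 transposon genes, 3 were positive and 3 negative, led by LOC_Os08g06800 with 2.92 and LOC_Os08g41070 and LOC_Os04g26360 with -1.72 and -1.69. LOC_Os08g06800 had 5, 6 and 8 reads in the W517NAZ libraries, an average of 0.104 FPKM, against 11.8 FPKM in DZ129AZ and 13.5 FPKM in DZ129NAZ. With a pseudocount of 1 its interaction was 1.205. LOC_Os08g41070 averaged 0.56 FPKM in W517AZ. With a pseudocount of 1, LOC_Os08g41070 had -0.96 and LOC_Os04g26360 -1.46.

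The highest interaction among the 276 genes with a product name was that of LTPL16 (LOC_Os01g60740), of the protease inhibitor, seed storage and lipid transfer protein family. It was at 12.3, 11.1 and 11.5 FPKM in W517AZ and 1.32, 0.367 and 1.22 FPKM in W517NAZ, and at 2.10, 2.13 and 2.15 FPKM in DZ129AZ and 1.67, 2.06 and 1.71 FPKM in DZ129NAZ, an interaction of 3.39 ± 0.44 (SE, limma adjusted p = 4.3e-05). The glycosyl transferase 8 gene LOC_Os03g20120 carries the symbol GOLS1, a name of galactinol synthases, which start the synthesis of raffinose sugars. It was at 30.2, 28.3 and 28.2 FPKM in W517AZ and 3.18, 2.94 and 2.70 FPKM in W517NAZ, and between 5.23 and 6.69 FPKM in all DZ129 libraries. Its tissue difference in DZ129 was -0.04 ± 0.09, and the interaction was 3.30 ± 0.13 (SE). TTL3 (LOC_Os05g50990) had 2.90, or 1.54 with a pseudocount of 1, with 2.27 to 2.45 FPKM in W517AZ and 0.257 to 0.416 FPKM in W517NAZ, and 0.766 to 0.947 FPKM in DZ129AZ and 1.08 to 1.21 FPKM in DZ129NAZ. A phosphate-induced protein 1 gene (LOC_Os02g52040), whose best match is EXO of Arabidopsis, a gene of cell expansion, had 2.65. Its level was lower in W517, at 3.997 to 4.52 FPKM in AZ and 0.740 to 1.09 FPKM in NAZ, than in DZ129, at 11.4 to 14.4 FPKM in AZ and 16.9 to 18.5 FPKM in NAZ. A plastocyanin-like domain gene (LOC_Os08g17160) had 2.59, with 18.8 to 22.9 FPKM in W517AZ and 4.37 to 6.19 FPKM in W517NAZ, against 0.848 to 1.64 FPKM in DZ129AZ and 1.64 to 1.90 FPKM in DZ129NAZ.

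Among the lowest interactions of genes with a product, the aldo/keto reductase LOC_Os10g02380 was the most abundant. It was at 10.7, 9.59 and 8.61 FPKM in W517AZ and 40.6, 43.1 and 41.1 FPKM in W517NAZ, against 101, 113 and 124 FPKM in DZ129AZ and 75.8, 82.8 and 76.0 FPKM in DZ129NAZ. AZ was below NAZ in W517 and above it in DZ129, and the interaction was -2.63 ± 0.11 (SE, limma adjusted p = 3.1e-09). The UDP-glycosyltransferase gene CGT (LOC_Os06g18010) was at 3.47, 2.60 and 2.87 FPKM in W517AZ, and between 9.0004 and 14.0 FPKM in the other 3 groups, an interaction of -2.52 ± 0.13. An alpha/beta fold hydrolase (LOC_Os03g61360) had -2.48 and a DNA binding protein (LOC_Os07g13100) had -2.08. LOC_Os07g13100 had 9, 7 and 8 reads in the W517AZ libraries, and -1.30 with a pseudocount of 1. The aspartic proteinase nepenthesin gene LOC_Os03g20210 was the only one with a product among the 30 genes called in opposite directions. It was at 3.04, 2.18 and 2.41 FPKM in W517AZ and 5.81, 6.63 and 7.16 FPKM in W517NAZ, and at 7.05, 7.75 and 7.92 FPKM in DZ129AZ and 4.29, 3.20 and 3.52 FPKM in DZ129NAZ. Its tissue difference was -1.34 ± 0.14 in W517 and 1.03 ± 0.14 in DZ129, and the interaction was -2.37 ± 0.19 (SE).

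The genes at both ends of the whole distribution had no product in the sources used here. LOC_Os08g15149 had the highest interaction, 5.11 ± 0.25 (SE), or 3.29 with a pseudocount of 1. It was at 5.47, 7.40 and 6.14 FPKM in W517AZ and 3.73, 3.67 and 3.77 FPKM in W517NAZ, against 0.164, 0.350 and 0.219 FPKM in DZ129AZ and 7.10, 6.11 and 7.45 FPKM in DZ129NAZ, so DZ129AZ alone was near 0. LOC_Os03g61860 followed with 4.97 ± 0.72, at 0.892 to 2.15 FPKM in W517AZ and at most 0.371 FPKM in W517NAZ, against at most 0.171 FPKM (2 reads) in DZ129AZ and 0.532 to 1.37 FPKM in DZ129NAZ. Its size depends on the pseudocount, and was 1.86 with a pseudocount of 1. LOC_Os06g09240 had the lowest interaction, -4.59 ± 0.25. It was at 1.90, 2.54 and 1.84 FPKM in W517AZ and 1.21, 2.15 and 1.84 FPKM in W517NAZ, against 87.7, 109 and 113 FPKM in DZ129AZ and 3.52, 3.40 and 3.35 FPKM in DZ129NAZ, so DZ129AZ alone was high. LOC_Os12g42510 had -4.35 ± 1.36 from at most 13 reads in a library, with 0 to 0.956 FPKM in W517AZ, 1.75 to 2.50 FPKM in W517NAZ, 1.33 to 2.62 FPKM in DZ129AZ and 0 to 2.02 FPKM in DZ129NAZ, and -1.89 with a pseudocount of 1.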

How the data were processed

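RNA was measured in 12 pedicel libraries, 3 in each of 4 groups. According to the methods of the study, Trimmomatic trimmed the reads, HISAT2 aligned them to MSU-RGAP 7.0, and Cufflinks and HTSeq gave the gene values. The authors deposited FPKM, 1 column a library, with 35851 genes. Whole reads could be recovered from these FPKM for 100% of genes within 0.02 of a read, and served for depth and 1 alternative.

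The interaction (W517AZ minus W517NAZ) minus (DZ129AZ minus DZ129NAZ) was tested on log2(FPKM + 0.1) in limma 3.58.1 (limma-trend, R 4.3.3), in 1 model of the 4 groups. This scale understates tissue differences of low genes, and more so in the cultivar with the lower level, which can change an interaction. A gene was tested if 3 or more libraries had 0.5 FPKM, and p-values were adjusted by Benjamini-Hochberg over these genes. The procedure was tested on simulated data. Product lists came from key words in the descriptions of 1160 readable genes of the study.

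Genes named were the 2 highest and 2 lowest interactions, the 10 highest and 10 lowest with a product, the 3 largest of each list, the study's candidates with actin, and the largest with opposite tissue differences. Other genes of the lists were named after their values were seen. The members, lists and tests were chosen with earlier results of these data known. Alternatives were other pseudocounts, filters, scalings and limits, a replicate block, no trend, voom, and leaving out each library. Python 3.11.15 with pandas 2.3.3 did the rest.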

Additional observations from a re-analysis of the deposited data

Results flagged for a closer look

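The results below were singled out because the AZ minus NAZ difference of W517 differed from that of DZ129 by the interaction test. As this is the comparison of the report itself, they are given as values on log2(FPKM + 0.1), without explanation. The test was passed by 8609 genes. Of the 73 genes selected by the naming rule 72 passed it, and their values follow.

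Without a product, LOC_Os08g15149 had 5.11, LOC_Os03g61860 4.97, LOC_Os12g42510 -4.35 and LOC_Os06g09240 -4.59. Among metabolic and storage genes, LTPL16 had 3.39, the GOLS1 gene 3.30, the glucose-1-phosphate adenylyltransferase genes LOC_Os08g25734 and LOC_Os01g44220 2.10 and 1.48, and the starch branching enzyme 1.86. The heat shock genes LOC_Os01g08860, BIP1 and STI had 1.93, 1.91 and 1.85. Of the thylakoid list, LOC_Os02g42000 had 2.16, LOC_Os02g37060 -1.23 and LOC_Os03g53640 -1.40.

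Of the hormone genes, the cytokinin glucosyltransferases LOC_Os02g51930, LOC_Os07g13634 and LOC_Os02g51910 had 3.24, 1.83 and -1.27. The auxin genes OsIAA4, LOC_Os07g14610 and LOC_Os05g33900 had 2.85, 1.62 and 1.59. The ACC oxidase gene LOC_Os05g05670 had 1.44, and the genes named ACC oxidase homolog 1, LOC_Os08g30150 and LOC_Os03g64280, had 1.15 and -1.17. Gibberellin 2-beta-dioxygenase 1 had 1.25, the BRI1-associated kinase 0.79, the 12-oxophytodienoate reductase -0.74 and the jasmonate-induced protein -0.82.

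Of wall and phenylpropanoid genes, the laccase LOC_Os01g62480 had 2.54, Os4bglu18 2.24, LAC7 -0.89 and the peroxidase LOC_Os07g44600 -2.69. The pectin acetylesterase genes had 1.07 and -1.14, and CSLE1 had -1.57. The flavonoid genes LOC_Os02g17940, LOC_Os06g08032 and LOC_Os02g56690 had -1.47, -1.52 and -2.06. The candidate LOC_Os01g63260 had 0.85 and actin -0.22.

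Of signalling and regulatory genes, the receptor kinases LOC_Os03g21510, OsWAK60 and LOC_Os10g02990 had 3.26, -2.51 and -2.71. The transcription factors LOC_Os02g05610, LOC_Os09g21180 and LOC_Os05g40790 had 1.71, 1.68 and 1.60, and the DNA binding protein LOC_Os07g13100 had -2.08. The F-box genes OsFBX275, OsFBLD3 and OsFBX148 had -0.95, -1.20 and -1.52. TTL3 had 2.90 and the phosphate-induced protein 2.65. The cell division genes LOC_Os03g44420, LOC_Os05g34170 and LOC_Os06g35574 had 1.19, 1.01 and -1.59.

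Of the remaining genes, the transporters LOC_Os06g12320, LOC_Os03g60880 and LOC_Os01g74110 had 2.74, 1.55 and -2.63. The plastocyanin-like gene had 2.59, the aldo/keto reductase -2.63, CGT -2.52, the hydrolase LOC_Os03g61360 -2.48 and the nepenthesin gene -2.37. The defence genes CHIT3, csAtPR5 and BBTI7 had 1.72, 1.04 and -2.06. The cytochrome P450 genes LOC_Os01g43700, LOC_Os01g12740 and LOC_Os05g35010 had 1.88, -0.89 and -1.35. The transposon genes LOC_Os08g06800, LOC_Os04g26360 and LOC_Os08g41070 had 2.92, -1.69 and -1.72.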

How the results depend on the processing

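The 8609 genes with an interaction ranged from 7949 to 8556 when 1 library was left out, the 1693 genes beyond 1 from 1648 to 1708, the 4089 positive genes from 3696 to 4030, and the 129 called genes of the product lists from 124 to 129. A pseudocount of 1 left 1110 genes beyond 1, and a limit of 5 FPKM left 863 of 13890 genes, a share of 6.21% in place of 8.94%. The class sizes under these settings were computed after seeing the data. Genes beyond 1 called in W517 and not in DZ129 numbered 417 with a pseudocount of 1 and 330 at 5 FPKM, in place of 650, and 630 to 663 with a library left out. Those called in DZ129 and not in W517 numbered 147 at 5 FPKM, in place of 302, and 290 to 308 with a library left out.

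With the replicate number as a block, 8409 genes were called, 1701 beyond 1. Deviations of libraries with the same number correlated between -0.043 and 0.018 across groups, so the numbers were not taken as pairs. Quantile normalization left 2 of 5 ethylene genes called, and 5 of 6 in each of the heat shock and the starch and sucrose lists. A pseudocount of 1 left 4 of 5 ethylene genes, and again 5 of 6 in each of these lists. The median tissue difference of W517 over all genes tested was 0.13 as deposited and 0.00 after quantile normalization, while the median interaction was 0.02 and -0.01. The interaction of LOC_Os03g14210 was -0.072 with voom on the recovered reads, where the cause was not tested. For the 73 genes selected by rule, 1500 values kept direction and call over the alternatives, 30 lost the call, 2 gained it (both LOC_Os03g14210) and 1 reversed. For the other 87 genes of the product lists, 1739 values kept both, 64 lost the call (12 genes), 22 gained it and 2 reversed. Low reads limit the genes under 2 FPKM.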

Other observations

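The limit of 1 FPKM in both cultivars left 5018 tested genes aside, which were low in at least 1 cultivar. Of these, 1786 (35.6%) had an interaction and 1566 (31.2%) one beyond 1, 909 positive and 657 negative, with a median size of 1.82 among those beyond 1. Among them were all but 1 of the 14 grain storage genes tested and all but 5 of the 17 cell wall genes tested. For such genes a fold between tissues in the low cultivar rests on few reads, and of their interactions only that of the candidate LOC_Os03g14210 is described here.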
